A study of Mus musculus with 27 samples.

Results

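The genes described here are 10 members of the Bcl2 family, chosen by symbol among 23604 genes with a unique name in the FPKM table of 19 bulk libraries of mouse pluripotent stem cells: *Bcl2*, *Bcl2l1*, *Mcl1*, *Bax*, *Bak1*, *Bcl2l11*, *Bbc3*, *Pmaip1*, *Bik* and *Bmf*. All 10 have values in every library. The study asked whether formative pluripotent stem cells (fPSCs) form a stable state between naïve mESCs and primed EpiSCs, and the question here is how the pro- and anti-apoptotic members are balanced in each state. All cells are labelled as wild type, but the paper describes 46C as *Sox1-GFP* reporter cells and BVSC as Blimp1-Stella reporter cells. Its ROSAmTmG mESCs were derived from ROSAmT/mG mice. Naïve mESCs (2 libraries) were grown feeder-free in N2B27 with 2i/lif, the combination of PD035901, Chir99021 and hLIF. EpiLCs (2 libraries), the transient cells that mESCs form on leaving the naïve state, were grown in N2B27 with KSR, Activin A and bFgf2. EpiSCs (2 libraries) were grown on inactivated mouse embryonic fibroblasts (MEFs) with KSR, Activin A, bFGF2 and the Wnt pathway inhibitor XAV939. Epiblastoids (1 library each on days 2, 3 and 4) were embedded in Matrigel with the factors of EpiLCs, and fPSCs are stabilised Epiblastoids kept in Matrigel with Activin A, bFgf2 and XAV939. The fPSC libraries are 1 of the CMT line at passage 1 (P1), 7 long-term libraries (CMT P10, P20, P30 and P11, 46C P24, BVSC P14 and ROSAmTmG P12) and 2 lines derived from E5.5 and E6.5 epiblast at P10.

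Members of this family decide whether the outer mitochondrial membrane is opened, the step that releases cytochrome c and starts the caspase cascade. *Bcl2*, *Bcl2l1* (encoding Bcl-xL) and *Mcl1* encode proteins that hold the effectors in check, *Bax* and *Bak1* encode the effectors that form the pore, and the BH3-only members *Bcl2l11* (Bim), *Bbc3* (Puma), *Pmaip1* (Noxa), *Bik* and *Bmf* bind the guardians or the effectors and tip the balance towards death. Pluripotent cells of the early embryo are known to lie close to this threshold, and loss of less fit or damaged epiblast cells by apoptosis is part of normal development. Much of the control of these proteins is by stability, localisation and binding, which RNA does not show.

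FPKM are scaled for depth and transcript length, so levels can be set side by side between genes and summed, but the table holds no read counts and the depth behind a value is unknown. Per library, the sum of all FPKM ranged from 307394 to 414727 and the number of genes at 1 FPKM or more from 10034 to 10933. The labels of 4 long-term fPSC libraries (CMT P11, 46C P24, BVSC P14 and ROSAmTmG P12) name the NEBNext Ultra kit and those of the other 15 bulk libraries do not, so the long-term fPSCs fall into 3 CMT passages, called the first deposit here, and the 4 libraries of that kit, called the second. Naïve and formative markers followed the labels. *Zfp42*, a naïve marker, was at 365 ± 25.8 FPKM (SD, n = 2) in mESCs and at 0.0172 ± 0.0206 (n = 7) in long-term fPSCs, while *Fgf5*, a formative marker, was at 0.0374 ± 0.0259 (n = 2) and 92.9 ± 13 (n = 7). The 6 primed markers did not single out EpiSCs, with a sum of 67.2 ± 15.1 FPKM there (n = 2) and 137 ± 127 in long-term fPSCs (n = 7). Summed over 16 fibroblast markers, EpiSCs held 752 and 916 FPKM, against 4.63 to 10.1 in mESCs, 17.2 to 21.6 in EpiLCs and 6.36 to 12.2 in long-term fPSCs. In both EpiSC libraries, the ones grown on MEFs, 14 of the 16 markers reached 1 FPKM, and *Postn* and *Lum* did not. The EpiSC sum was led by *Tagln* (mean 299), *Acta2* (161) and *Col1a1* (132). *Dcn* was higher in EpiLCs (5.29) than in EpiSCs (2.35). By the limma test described below, 12 of 14 markers tested were called higher in EpiSCs than in EpiLCs and 1 lower, beside 20.4% and 15.5% of all genes. The part of feeder RNA in the EpiSC values below was not tested, and in bulk libraries fewer cells of a type and less RNA per cell cannot be told apart. No label says that replicates came from separate cultures, and 4 of the 7 long-term fPSC libraries (CMT P10, P20, P30 and P11) are of 1 line. So p-values measure the spread between these libraries only, and the 7 are not 7 independent lines.

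The highest levels belonged to the effectors and to *Mcl1*, and the 2 lowest members were *Bcl2* and *Bik* in every one of the 4 groups with replicates. In mESCs the order by mean FPKM was led by *Bax* (164), *Mcl1* (95.1), *Bak1* (24.7) and *Bcl2l1* (19.6). EpiLCs were led by *Mcl1* (153), *Bax* (106), *Bak1* (53) and *Pmaip1* (40.0). In EpiSCs *Bak1* (85.8) stood above *Bax* (67.6), and *Mcl1* (52.9) and *Bcl2l1* (43.8) came next. Long-term fPSCs were led by *Bax* (114), with *Bak1* (53.5) and *Mcl1* (53.4) at nearly equal means. The widest ranges over the 19 libraries, on the scale log2(FPKM + 1), were those of *Pmaip1* (5.36), *Bcl2l11* (3.48) and *Mcl1* (2.28), and the narrowest among members above 2 FPKM in some library was that of *Bax* (1.58).

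**Figure D1:**
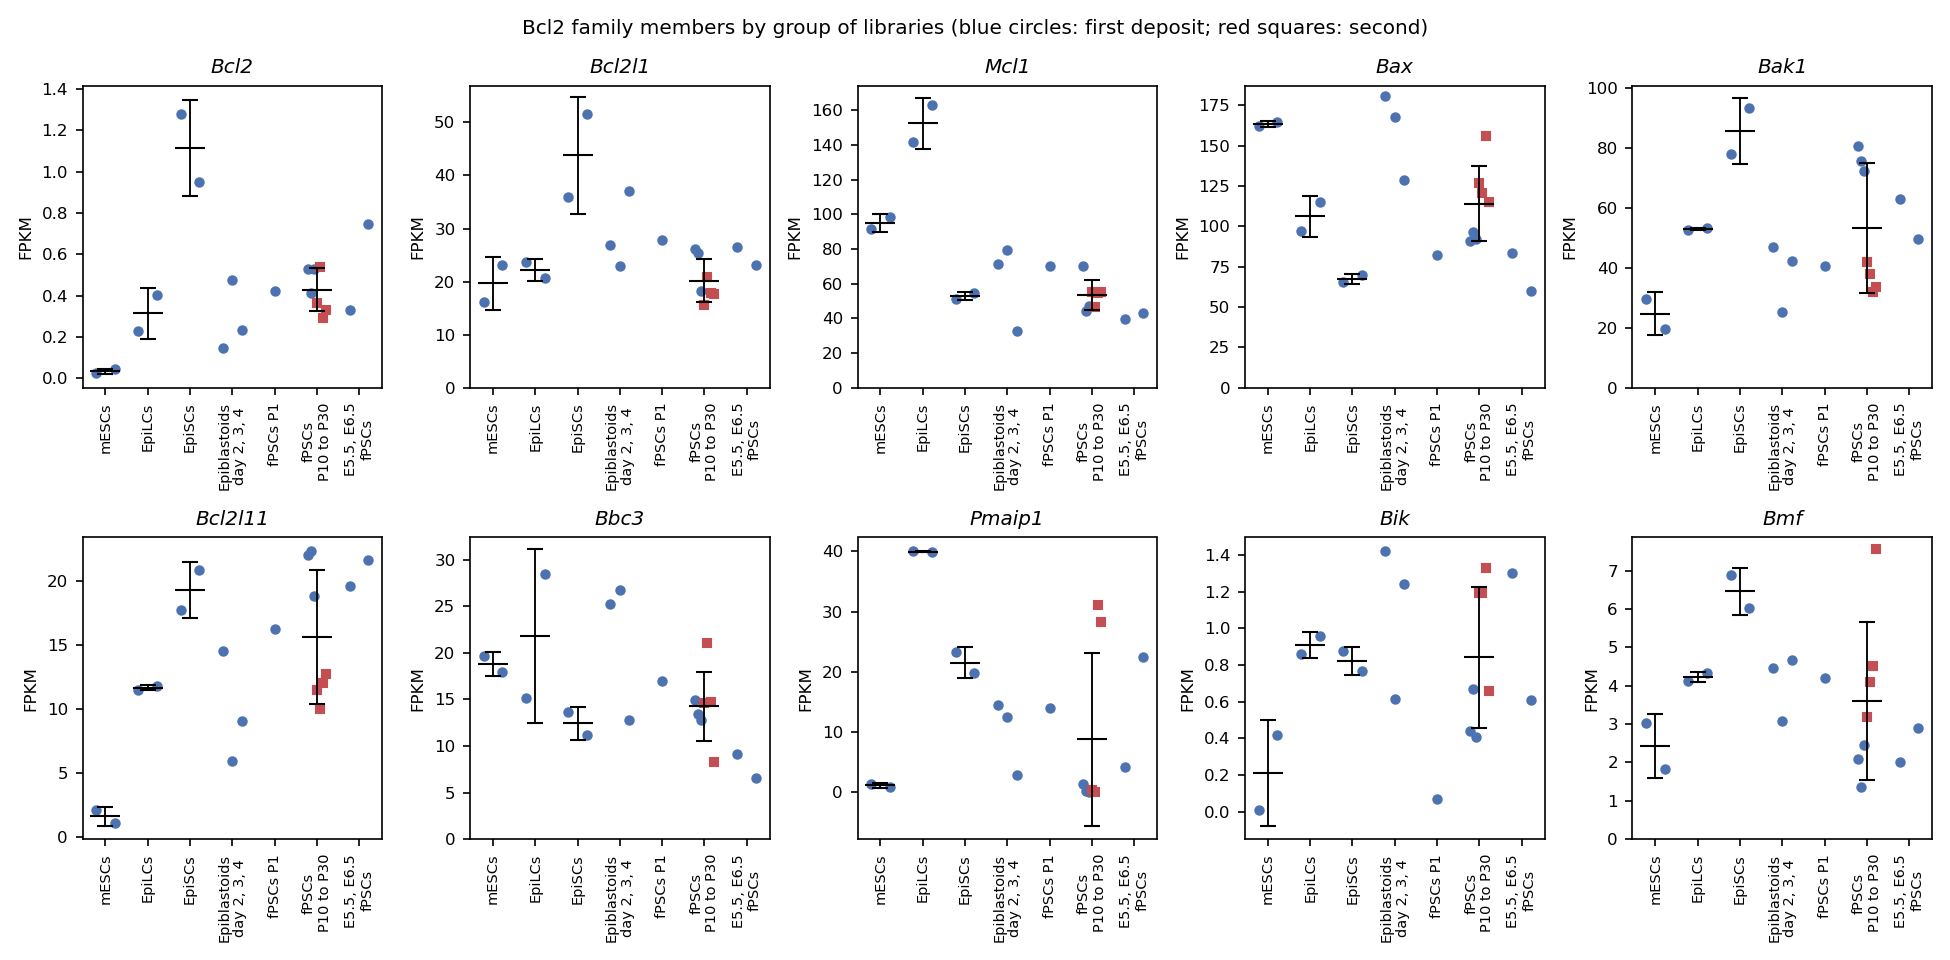
FPKM of each member (vertical axis, its own scale per panel) in the 19 bulk libraries, by group. Each point is a library, with red squares for the second deposit and blue circles for all others. Bars give the mean and SD of mESCs, EpiLCs, EpiSCs and long-term fPSCs. *Mcl1* is highest in the 2 EpiLC libraries (142 and 163), *Bcl2l11* lowest in the 2 mESC libraries (1.10 and 2.11), and *Pmaip1* in long-term fPSCs splits between values up to 1.35 and values of 28.3 and 31.1.

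*Mcl1* (chr3:95462643-95467099, plus strand, mm9) was the most abundant anti-apoptotic member in every library but that of Epiblastoids on day 4. It was at 91.6 and 98.6 FPKM in mESCs, 142 and 163 in EpiLCs, and 51.2 and 54.6 in EpiSCs. In long-term fPSCs it ran from 44.5 over a median of 54.6 to 70.2. No library of one of these groups overlapped those of another, save that EpiSCs lay inside the range of fPSCs. Groups were compared with limma on log2(FPKM + 1), with a gene called where its Benjamini-Hochberg adjusted p was below 0.05 and it changed 1.5-fold or more. *Mcl1* rose in EpiLCs against mESCs by 0.67 on the log2 scale (SE 0.21, adjusted p = 0.0245). It fell in fPSCs against mESCs by 0.84 (SE 0.17, adjusted p = 0.00114) and against EpiLCs by 1.51 (SE 0.17, adjusted p = 3.29e-05). EpiSCs were lower than mESCs by the same measure (log2 fold change -0.83, SE 0.21, adjusted p = 0.00491) and lower than EpiLCs (-1.51, SE 0.21, adjusted p = 0.000101). Between fPSCs and EpiSCs the difference was -0.002 with a 95% interval from -0.36 to 0.36. The falls in fPSCs were of like size in both deposits, at -0.83 and -0.84 against mESCs and -1.51 in both against EpiLCs. The rise in EpiLCs was the weakest of these calls: leaving out any 1 of the 4 mESC and EpiLC libraries ended it, with adjusted p from 0.051 to 0.122, as did fitting the 2 groups alone (0.065).

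*Bcl2l1* (chr2:152593052-152657464, minus strand), whose product Bcl-xL guards the mitochondrial membrane beside Mcl-1, was at 16.1 and 23.2 FPKM in mESCs, 23.6 and 20.7 in EpiLCs and 36.0 and 51.6 in EpiSCs. Long-term fPSCs ran from 15.5 over a median of 18.2 to 26.2. EpiSCs stood above every library of the other 3 groups, and those 3 groups overlapped one another. The test called *Bcl2l1* higher in EpiSCs than in mESCs by 1.12 (SE 0.27, adjusted p = 0.00484) and than in EpiLCs by 0.93 (SE 0.27, adjusted p = 0.0183). It called fPSCs lower than EpiSCs, where *Bcl2l1* fell by 1.08 (SE 0.22, adjusted p = 0.0023). All 3 calls were lost without EpiSCs replicate 2, the library with the higher value and the larger fibroblast sum, at adjusted p of 0.0632, 0.173 and 0.0829. That against mESCs was also lost without mESCs replicate 1 (0.0547), and that against EpiLCs without EpiLCs replicate 2 (0.104). Against mESCs, fPSCs differed by 0.04 with a 95% interval from -0.44 to 0.52. *Bcl2* (chr1:108434755-108610851, minus strand), the founding member of the family, stayed at or under 1.28 FPKM in every library and passed 1 FPKM only in EpiSCs replicate 1, so it was under the filter on low values and was not tested. Its values were 0.0246 and 0.0436 in mESCs, 0.228 and 0.403 in EpiLCs, 1.28 and 0.95 in EpiSCs and 0.293 to 0.541 in long-term fPSCs. *Mcl1* thus made up 83.0 ± 2.9% of the summed anti-apoptotic FPKM in mESCs (n = 2), 87.1 ± 2.03% in EpiLCs (n = 2), 54.4 ± 4.91% in EpiSCs (n = 2) and 72 ± 4.82% in long-term fPSCs (n = 7).

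The effectors moved in opposite directions between mESCs and EpiSCs. *Bax* (chr7:52717065-52722268, minus strand) was at 162 and 165 FPKM in mESCs, 97.4 and 115 in EpiLCs, 65.4 and 69.9 in EpiSCs, and from 90.8 over a median of 115 to 156 in long-term fPSCs. mESCs were above all libraries of the other 3 groups and EpiSCs below all of them. The fPSC libraries of the first deposit (90.8, 96.4 and 92.5) were below those of the second (127, 121, 156 and 115), with no overlap. *Bax* fell in EpiSCs against mESCs by 1.26 (SE 0.24, adjusted p = 0.000954), and it was higher in fPSCs than in EpiSCs by 0.72 (SE 0.20, adjusted p = 0.0125). That last call was lost without EpiSCs replicate 1 (0.104), without EpiSCs replicate 2 (0.0891) and with the first deposit of fPSCs alone, where the difference of 0.46 was under the fold threshold. Against mESCs, fPSCs differed by -0.54 (adjusted p = 0.0393), a change under the fold threshold. With the first deposit alone it was -0.81 (adjusted p = 0.000859) and with the second -0.34 (0.0855).

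*Bak1* (chr17:27156755-27165954, minus strand), the effector that sits in the mitochondrial membrane in living cells, was at 29.8 and 19.6 FPKM in mESCs, 52.7 and 53.3 in EpiLCs and 78.0 and 93.6 in EpiSCs. Long-term fPSCs ran from 32.0 over a median of 42.1 to 80.6, all above both mESC libraries. The 3 fPSC libraries of the first deposit were at 80.6, 75.6 and 72.3 and the 4 of the second at 42.1, 37.9, 32.0 and 33.6, with no overlap. The gap lay within the CMT line too, between P10 (80.6) and P11 (42.1). CMT P11 was cryopreserved and its library was made with another kit, and these cannot be told apart. *Bak1* rose against mESCs in EpiSCs by 1.78 (SE 0.44, adjusted p = 0.00506) and in fPSCs by 1.01 (SE 0.35, adjusted p = 0.033). In EpiLCs it was higher than in mESCs by 1.10 (SE 0.44, adjusted p = 0.0771), which was not called. That difference was called in 3 of 10 alternatives, among them the fit of these groups alone (0.0213). Within deposits the fPSC difference was 1.62 (adjusted p = 7.16e-05) for the first and 0.56 (adjusted p = 0.027), under the fold threshold, for the second. Without mESCs replicate 1 the fPSC call was lost (0.0607), as it was without mESCs replicate 2 (0.29), and without the latter that of EpiSCs was lost too (0.0555). The sum of *Bax* and *Bak1* was 188 ± 5.33 FPKM in mESCs (n = 2), 159 ± 13 in EpiLCs (n = 2), 153 ± 14.2 in EpiSCs (n = 2) and 168 ± 12.0 in long-term fPSCs (n = 7). *Bax* was lower and *Bak1* higher in the first deposit of fPSCs than in the second. Their sum was 169 ± 4.02 in the first (n = 3) and 166 ± 16.5 in the second (n = 4).

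*Bcl2l11* (chr2:127951774-127988283, plus strand) gave the largest change among the called members. This gene encodes Bim, a BH3-only protein that can bind every guardian of the family and is held down by growth factor signalling through Erk. It was at 2.11 and 1.10 FPKM in mESCs, 11.5 and 11.8 in EpiLCs, 17.7 and 20.8 in EpiSCs and 10 to 22.3 in long-term fPSCs (median 12.7). Every library outside the naïve state, Epiblastoids included, was above both mESC libraries, with 5.93 on day 3 of Epiblastoids as the lowest. Against mESCs it rose in EpiLCs by 2.31 (SE 0.37, adjusted p = 0.000394), in EpiSCs by 2.98 (SE 0.37, adjusted p = 2.52e-05) and in fPSCs by 2.64 (SE 0.30, adjusted p = 1.03e-05). These 3 calls held under each of the alternatives run, 10, 10 and 15 in number. The fPSCs of the first deposit (22, 22.3 and 18.8) were above those of the second (11.5, 10, 12.0 and 12.7), and the rise against mESCs was 3.11 in the first and 2.29 in the second.

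The promoters of *Bcl2l11* and *Mcl1* are shown as CpG-rich examples among members, and that of *Bmf* as one near the middle of all promoters. The methylation values further on bear on such promoters. Each run holds the 250 bases before the annotated start site, read 5′ to 3′ in the direction of the gene from the NCBIM37 assembly (mm9), with each CG in capitals. The first is chr2:127951524-127951773 on the plus strand, 24 CG; the second chr3:95462393-95462642 on the plus strand, 26 CG; the third chr2:118375424-118375673 on the minus strand, 8 CG. None of these stretches holds an annotated exon, and 13.5%, 10.7% and 52.6% of 22072 protein-coding promoters have as many CG in the same window.
Bcl2l11: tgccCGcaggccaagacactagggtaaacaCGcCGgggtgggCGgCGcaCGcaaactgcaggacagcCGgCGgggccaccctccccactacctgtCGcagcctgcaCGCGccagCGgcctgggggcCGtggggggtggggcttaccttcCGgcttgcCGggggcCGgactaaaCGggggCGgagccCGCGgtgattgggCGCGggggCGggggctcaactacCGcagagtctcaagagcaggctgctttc
Mcl1: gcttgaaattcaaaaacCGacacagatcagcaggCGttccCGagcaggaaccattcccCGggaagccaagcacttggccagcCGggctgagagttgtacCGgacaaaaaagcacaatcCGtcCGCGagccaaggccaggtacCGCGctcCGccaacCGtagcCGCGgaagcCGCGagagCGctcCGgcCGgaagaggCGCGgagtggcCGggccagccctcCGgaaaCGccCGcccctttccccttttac
Bmf: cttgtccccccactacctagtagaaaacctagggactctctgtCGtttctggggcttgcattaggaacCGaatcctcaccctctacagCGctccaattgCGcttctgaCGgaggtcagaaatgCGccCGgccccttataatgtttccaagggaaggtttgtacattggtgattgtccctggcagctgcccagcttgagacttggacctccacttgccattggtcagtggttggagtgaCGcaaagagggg

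The other BH3-only members outside *Pmaip1* changed less. *Bbc3* (chr7:16894965-16903554, plus strand) encodes Puma, the main BH3-only target of p53. It was at 19.7 and 17.9 FPKM in mESCs, 15.2 and 28.4 in EpiLCs, 13.7 and 11.2 in EpiSCs and 8.34 to 21.0 in long-term fPSCs (median 14.6). It was called in none of the 6 comparisons, and the interval of its difference between fPSCs and mESCs reached from -1.01 to 0.18. *Bmf* (chr2:118354493-118375423, minus strand), which encodes a BH3-only protein tied to the cytoskeleton, was at 3.02 and 1.84 FPKM in mESCs, 4.13 and 4.32 in EpiLCs, 6.88 and 6.03 in EpiSCs and 1.35 to 7.55 in fPSCs (median 3.18), and was called in none. Its largest difference was that of EpiSCs against mESCs (1.14, adjusted p = 0.0595), which passed the threshold under upper-quartile scaling and 3 other settings. The first deposit of fPSCs (2.09, 1.35 and 2.46) was below the second (3.18, 4.10, 4.51 and 7.55). Its difference between fPSCs and EpiSCs was -1.34 (adjusted p = 0.00118) with the first deposit alone and -0.40 (0.233) with the second. *Bik* (chr15:83357292-83375065, plus strand) stayed at or under 1.42 FPKM in every library. It was called higher in fPSCs than in mESCs by 0.60 (SE 0.21, adjusted p = 0.0313), from 0.00803 and 0.417 FPKM to a range of 0.405 to 1.33. The call rests on values near the floor of the table, and it was lost in 6 of 14 alternatives, among them the omission of mESCs replicate 1 (0.363).

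*Pmaip1* (chr18:66618258-66625204, plus strand) varied most of all members. It encodes Noxa, a BH3-only protein that binds Mcl-1 and drives its degradation, and it is a target of p53. *Pmaip1* was at 1.40 and 0.851 FPKM in mESCs, 40.0 and 39.9 in EpiLCs, and 23.3 and 19.7 in EpiSCs. Epiblastoids held 14.5, 12.5 and 2.84 on days 2, 3 and 4, and CMT fPSCs at P1 held 13.9. The CMT fPSCs of later passages were at 1.35 (P10), 0.166 (P20) and 0.394 (P11), and P30 is listed at 0. Among the other lines, 46C was at 0.00474, BVSC at 31.1 and ROSAmTmG at 28.3, and the lines from E5.5 and E6.5 epiblast were at 4.10 and 22.4. So 5 of 7 long-term fPSC libraries were at or below the higher mESC value, and the other 2 were above both EpiSC libraries. The 4 libraries of the second deposit fell on both sides, with CMT and 46C low and BVSC and ROSAmTmG high. The 4 low CMT libraries came from both deposits.

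**Figure D2:**
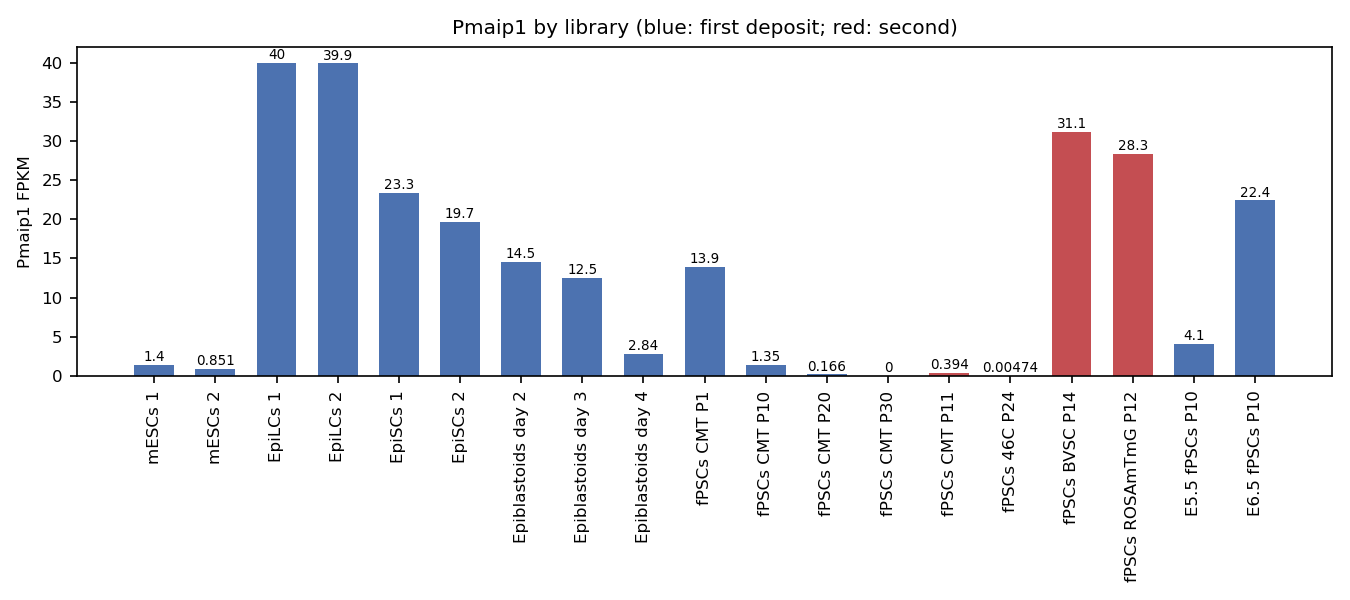
*Pmaip1* FPKM (vertical axis) in each of the 19 bulk libraries, in red for the second deposit and blue for all others. Each bar is 1 library, with its value above it. EpiLCs stand at 40.0 and 39.9, the 4 CMT fPSC libraries from P10 onwards at no more than 1.35, and BVSC and ROSAmTmG fPSCs at 31.1 and 28.3.

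With this spread inside the fPSCs, no comparison called *Pmaip1*. In the fit over all 4 groups the rise in EpiLCs against mESCs was 4.28 (SE 1.58, adjusted p = 0.0576), although the libraries of these 2 groups did not overlap. In a fit of these 2 groups alone, where the fPSCs no longer add to the estimate of spread, the same difference had an SE of 0.24 and an adjusted p of 0.000217. EpiSCs against mESCs gave 3.41 (SE 1.58, adjusted p = 0.0915), and 9.34e-05 with the 2 groups alone. Against EpiLCs, fPSCs differed by -3.67 (SE 1.27, adjusted p = 0.0719). That difference passed the threshold without BVSC (-4.22, adjusted p = 0.0172), without ROSAmTmG (-4.20, adjusted p = 0.0192) and with the 3 CMT libraries of the first deposit alone (-4.87, adjusted p = 1.42e-05). It was -2.77 (adjusted p = 0.154) with the second deposit. Against EpiSCs the same settings gave calls at -3.35, -3.33 and -4.0 (adjusted p = 0.0276, 0.0312 and 1.65e-05), where the full set gave -2.80 (0.101). The difference between fPSCs and mESCs was 0.61, with an interval from -2.14 to 3.37. The closest genes on each side that reach 5 FPKM in any library are *Lman1*, 436 kb away, and *Mppe1*, 760 kb away. *Lman1* was at 37.0 FPKM in CMT P10, 32.3 in CMT P30, 35.4 in 46C, 21.9 in BVSC and 37.4 in ROSAmTmG, so the lines low and high in *Pmaip1* overlapped in *Lman1*.

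Counted over the 9 members tested, EpiLCs against mESCs gave 2 called higher (*Bcl2l11* and *Mcl1*) and 0 lower, with a median log2 fold change of 0.67 against -0.06 over all genes. Of all 12513 genes tested, 29.6% were called in that comparison, 12.2% higher and 17.4% lower. EpiSCs against mESCs gave 3 higher (*Bcl2l11*, *Bak1* and *Bcl2l1*) and 2 lower (*Bax* and *Mcl1*), beside 47.8% of all genes, 23.1% higher and 24.7% lower. In fPSCs against mESCs 3 were higher (*Bcl2l11*, *Bak1* and *Bik*) and 1 lower (*Mcl1*), beside 40.3% of all genes, 17.3% higher and 23.0% lower. The shares of members called in these 3 comparisons, 22.2%, 55.6% and 44.4%, lie close to those of all genes.

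Among the states beyond naïve, 1 or 2 members were called in each comparison. EpiSCs against EpiLCs gave 1 higher (*Bcl2l1*) and 1 lower (*Mcl1*), beside 35.9% of all genes, 20.4% higher and 15.5% lower. For fPSCs against EpiLCs *Mcl1* alone was called, lower, 11.1% of the members beside 13.8% of all genes, 5.66% higher and 8.15% lower. For fPSCs against EpiSCs *Bax* was higher and *Bcl2l1* lower, beside 32.3% of all genes, 13.3% higher and 19% lower. The 3 comparisons against mESCs share the same 2 libraries, so their like values are not independent of one another.

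**Figure D3:**
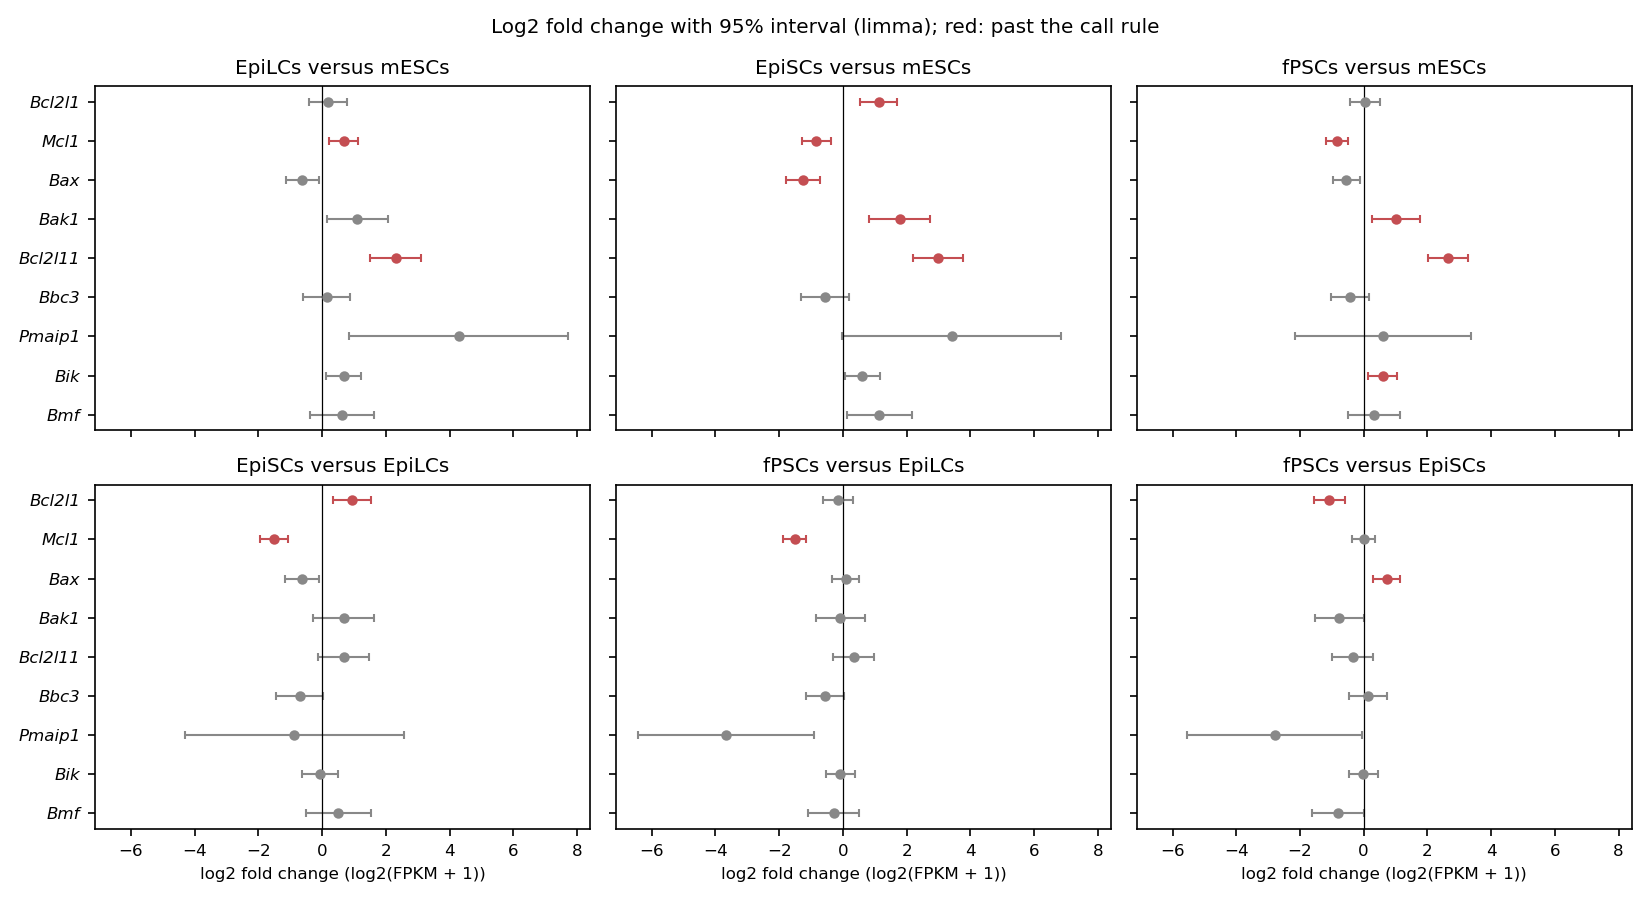
Log2 fold change on the scale log2(FPKM + 1) with its 95% interval from limma (horizontal axis) for the 9 members tested (vertical axis) in the 6 comparisons; red marks those past the threshold. *Bcl2l11* is right of 0 by 2.31 to 2.98 in the 3 comparisons against mESCs, *Mcl1* is left of 0 by 1.51 in the 2 comparisons against EpiLCs, and the widest intervals are those of *Pmaip1*.

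The balance of the classes was taken per library as the summed FPKM of effectors and BH3-only members over that of the anti-apoptotic members. It was 2.03 and 1.70 in mESCs, 1.33 and 1.38 in EpiLCs, 2.33 and 2.07 in EpiSCs, and 2.19 to 3.46 in long-term fPSCs with a median of 2.87. EpiLCs were the lowest of all 19 libraries. Of the 7 long-term fPSC libraries, 6 were above both EpiSC libraries and CMT P10 lay between them. Epiblastoids stood at 2.93, 2.36 and 2.88 on days 2, 3 and 4, CMT fPSCs at P1 at 1.77, and the lines from E5.5 and E6.5 epiblast at 2.75 and 2.44. The ratio was 2.73 ± 0.469 in the first deposit of fPSCs (n = 3) and 2.99 ± 0.31 in the second (n = 4), a difference within their spread.

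**Figure D4:**
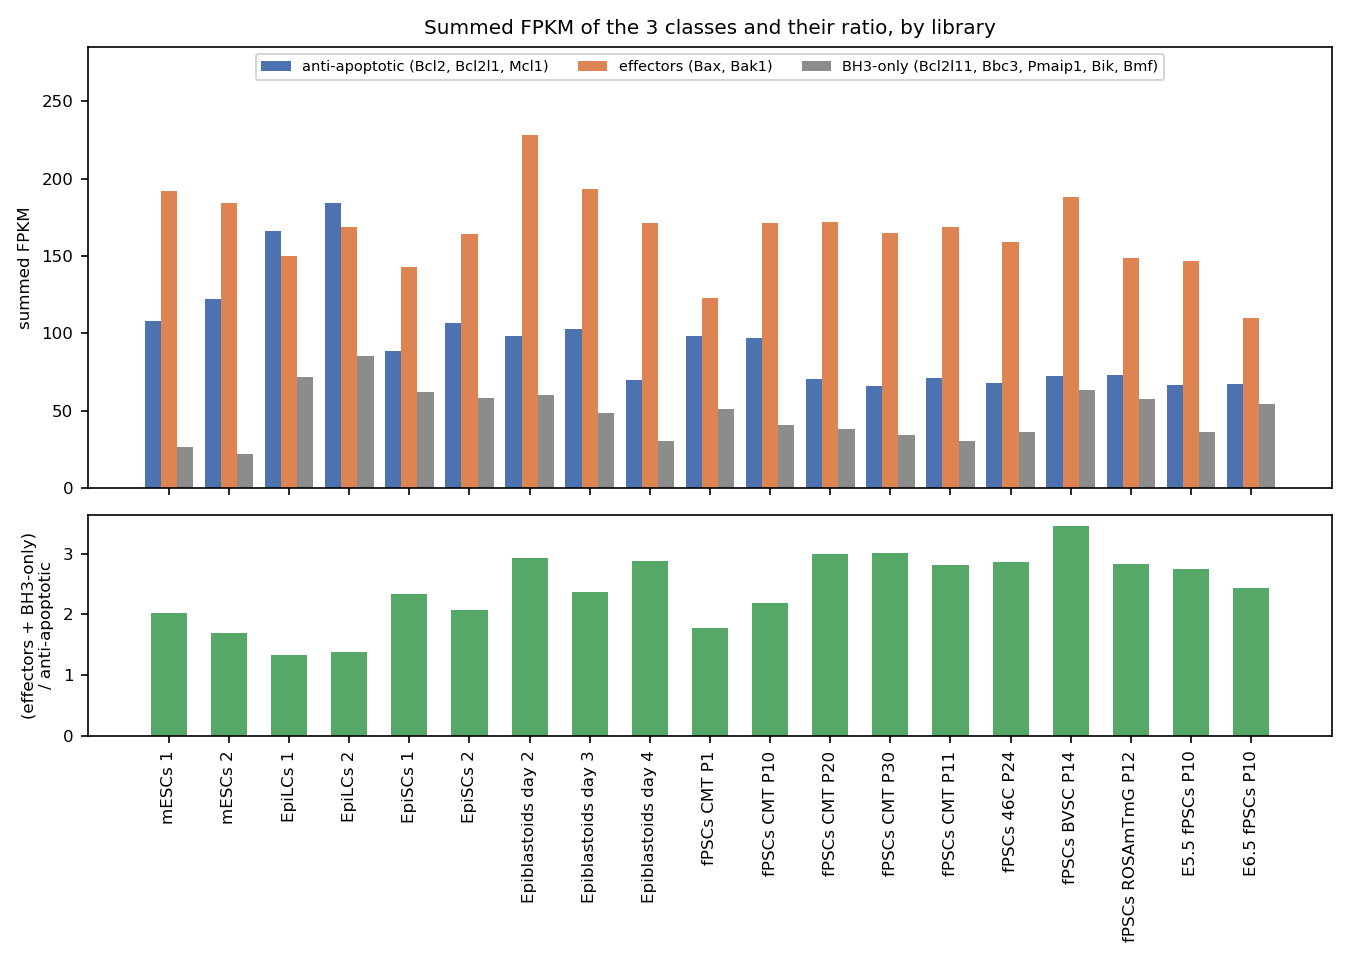
Summed FPKM of the 3 classes of members (upper panel) and the ratio of effectors plus BH3-only members to anti-apoptotic members (lower panel) in each of the 19 bulk libraries; each bar is 1 library, and the axes start at 0. EpiLCs have the highest anti-apoptotic sums (166 and 184) and the lowest ratios (1.33 and 1.38), and BVSC fPSCs have the highest ratio (3.46).

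The ratio is carried by a few abundant members. *Bax* made up 77.1 ± 3.88% of the pro-apoptotic sum in mESCs and 31.6 ± 0.218% in EpiSCs (n = 2 each). On the log2 scale the mean ratio in EpiLCs was 0.45 lower than in mESCs (-0.45), but it was 0.83 higher without *Bax* and 0.52 higher when each class was the mean of log2(FPKM + 1), so its direction depends on how members are weighted. In fPSCs the ratio was 0.63 higher than in mESCs, 0.61 higher with the mean of logs, 1.61 higher without *Bax*, and -0.08 without *Mcl1*. In EpiSCs it was 0.24 higher, and -1.18 without *Mcl1*. The sum of the listed BH3-only members rose from 22.1 and 26.3 FPKM in mESCs to 71.8 and 85.4 in EpiLCs and 58.5 and 62.4 in EpiSCs. Long-term fPSCs held 30.8 to 63.7, and none of these groups overlapped mESCs. *Pmaip1* gave 40.0 and 39.9 of it in EpiLCs, 31.1 in BVSC, 28.3 in ROSAmTmG and at most 1.35 in the other long-term fPSCs. *Bid* and *Bad*, BH3-only genes outside the list, are not in it. From mESCs over EpiLCs and EpiSCs to long-term fPSCs, *Bid* averaged 26.7, 19.2, 8.41 and 13.2 FPKM and *Bad* 13.3, 6.51, 7.44 and 11.2. The sum of the listed BH3-only members was 10.7% and 12.0% of the pro-apoptotic sum in mESCs and 32.3% and 33.6% in EpiLCs. The anti-apoptotic sum fell on the other side of mESCs in fPSCs, at 66.1 to 96.9 FPKM against 108 and 122.

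Epiblastoids, CMT fPSCs at P1 and the lines from epiblast are single libraries without replicates, so their values are given without a test. They are not all steps from mESCs to fPSCs. The paper describes cells on day 4 as irregular colonies with markers of an epithelial-to-mesenchymal transition induced. The lines from E5.5 and E6.5 epiblast were not derived from mESCs. In Epiblastoids, *Mcl1* was at 71.5, 79.2 and 32.8 FPKM on days 2, 3 and 4, and *Bcl2l1* at 26.8, 23.0 and 37.1, so day 4 held the lowest *Mcl1* of all 19 libraries. *Bcl2l11* was at 14.5, 5.93 and 9.09, *Bbc3* at 25.2, 26.7 and 12.8, and *Bax* at 181, 168 and 129. CMT fPSCs at P1 were at 70.3 for *Mcl1*, 82.2 for *Bax*, 40.7 for *Bak1* and 16.2 for *Bcl2l11*. In the lines from E5.5 and E6.5 epiblast, *Mcl1* was at 39.7 and 43.2, below all 7 long-term libraries of lines from mESCs. *Bbc3* was at 9.11 and 6.58 there, and *Bak1* at 62.9 and 49.6.

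Other genes of the pathway were taken from lists of 13 further family members, 20 genes of the apoptosome and its inhibitors, 20 genes of the p53 axis and 6 genes known for the turnover of Mcl-1. Of the further family members, 7 were tested. In fPSCs against mESCs 1 was higher and 2 were lower, 42.9% of them beside 40.3% of all genes. *Bcl2l14*, a member of uncertain role, fell from 9.97 ± 0.31 to 0.165 ± 0.23 FPKM (log2 fold change -3.26, adjusted p = 8.26e-08). *Bid*, the BH3-only protein that links death receptors to mitochondria, fell from 26.7 ± 0.00487 to 13.2 ± 3.51 (-1.0, adjusted p = 0.00545). *Bcl2l13* rose from 7.14 ± 1.33 to 15.1 ± 2.27 (0.99, adjusted p = 0.000379). In EpiLCs against mESCs *Bok*, a relative of *Bax* and *Bak1*, rose from 9.12 ± 0.572 to 17.9 ± 4.08 (0.89, adjusted p = 0.00888), and *Bcl2l14* and *Bad* fell. Between fPSCs and EpiSCs none of the 7 was called by limma, with 2 at an unadjusted p under 0.05.

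All 20 genes of the apoptosome list were tested, and 4 were called higher and 5 lower in fPSCs against mESCs, 45.0% of the list beside 40.3% of all genes. *Htra2*, which encodes a mitochondrial protease that relieves the block on caspases, rose from 17.2 ± 1.38 to 28.9 ± 3.23 FPKM (0.71, adjusted p = 0.00214). EpiLCs against mESCs gave 0 higher and 2 lower, and fPSCs against EpiLCs 1 higher and 0 lower. *Casp8*, the initiator caspase of death receptors, was higher in EpiSCs, at 7.71 ± 0.342 FPKM, than in mESCs, at 0.738 ± 0.0863 (2.33, adjusted p = 4.39e-06), and EpiLCs, at 0.51 ± 0.38 (2.55, adjusted p = 3.49e-06). It was also higher in long-term fPSCs, at 4.56 ± 0.747 (n = 7), than in mESCs (1.67, adjusted p = 1.19e-05) and EpiLCs (1.89, adjusted p = 1.5e-05). The EpiSC libraries are those with 752 and 916 FPKM of fibroblast markers, and the part of feeder RNA in this result was not tested.

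Of 19 genes tested in the p53 axis, 1 was higher and 7 were lower in fPSCs against mESCs, 42.1% of those tested beside 40.3% of all genes, with a median of -0.41 against -0.04 over all genes. *Cdkn1a*, the p53 target that encodes the cell cycle inhibitor p21, was at 114 ± 14.6 FPKM in mESCs (n = 2), 21.2 ± 3.35 in EpiLCs (n = 2), 108 ± 26.6 in EpiSCs (n = 2) and 30.2 ± 11.3 in fPSCs (n = 7). It fell against mESCs in EpiLCs by 2.37 (adjusted p = 0.00319) and in fPSCs by 1.98 (adjusted p = 0.00147). *Gdf15*, another p53 target, fell in fPSCs from 8.48 ± 1.59 to 0.146 ± 0.0798 (-3.04, adjusted p = 2.72e-09). *Perp*, a p53 target of cell junctions, rose from 2.52 ± 0.13 to 12.3 ± 4.5 (1.84, adjusted p = 0.000646). In fPSCs against EpiSCs 0 were higher and 7 lower, 36.8% beside 32.3% of all genes, among them *Plk2* (-2.28, adjusted p = 6.51e-05) and *Tnfrsf10b* (-1.77, adjusted p = 0.0171), again beside the fibroblast signal of EpiSCs. Of the Mcl-1 turnover genes 4 were tested. *Usp9x*, the deubiquitinase that stabilises Mcl-1, was lower than in mESCs (30.4 ± 15.9) both in EpiSCs (8.7 ± 0.141, adjusted p = 0.00086) and in fPSCs (13.3 ± 2.03, adjusted p = 0.00342), and *Btrc* was lower in fPSCs (-0.66, adjusted p = 0.0492). In EpiLCs against mESCs, EpiSCs against EpiLCs and fPSCs against EpiLCs, limma called 0 of the 4, with 1, 1 and 0 at an unadjusted p under 0.05.

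In fPSCs at P10, 1 track each of H3K4me3, H3K27me3 and DNA methylation was used, in bins or windows of 100 bp on mm9. The labels list 2 replicates of each assay and the methods state that ChIP-seq replicates were integrated, so there are no replicate values, and the line of these cells is not named in the labels. H3K4me3 marks promoters in use or poised for use, H3K27me3 is laid down by Polycomb at silent or poised genes, and methylation of a CpG-rich promoter goes with lasting silence. All listed bins were within 2% of a whole multiple of the lowest RPKM of their track, the value of a single read, and the methylation windows carry no coverage.

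For 9 of the 10 members the promoter was largely free of methylation, with a mean methylated fraction within 1000 bp of the start site from 0.0938 (*Bcl2l11*) to 0.251 (*Bax*). The value of *Bak1* rests on 6 windows. Of these, 4 lie within 500 bp, at a mean of 0.25, and the windows right at its start site have no value. The exception among the 10 members was *Pmaip1*. Its fraction was 0.976 over 20 windows, at percentile 99.1 of all promoters, and 0.987 within 500 bp. Of all promoters 43.1% were at 0.5 or more, with a median of 0.374. The *Pmaip1* promoter holds 85 CpG within 500 bp of the start site. Of the 3127 promoters with as many CpG, 10 were methylated at 0.9 or more within 500 bp, a share of 0.32%. *Bcl2l11*, which also holds 85 CpG there, was at 0.0155 within 500 bp. Methylation fell only further into *Pmaip1*, with fractions from 0.58 to 0.71 at 2100 to 2500 bp after the start site and 0.0 in the window at 2600 bp. RNA of *Pmaip1* was at 1.35 FPKM in CMT fPSCs at P10 and at 4.10 and 22.4 in the P10 lines from epiblast. Since the line behind the methylation track is not named, and no methylation of BVSC or ROSAmTmG fPSCs was used here, a link between the 2 values was not tested.

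**Figure D5:**
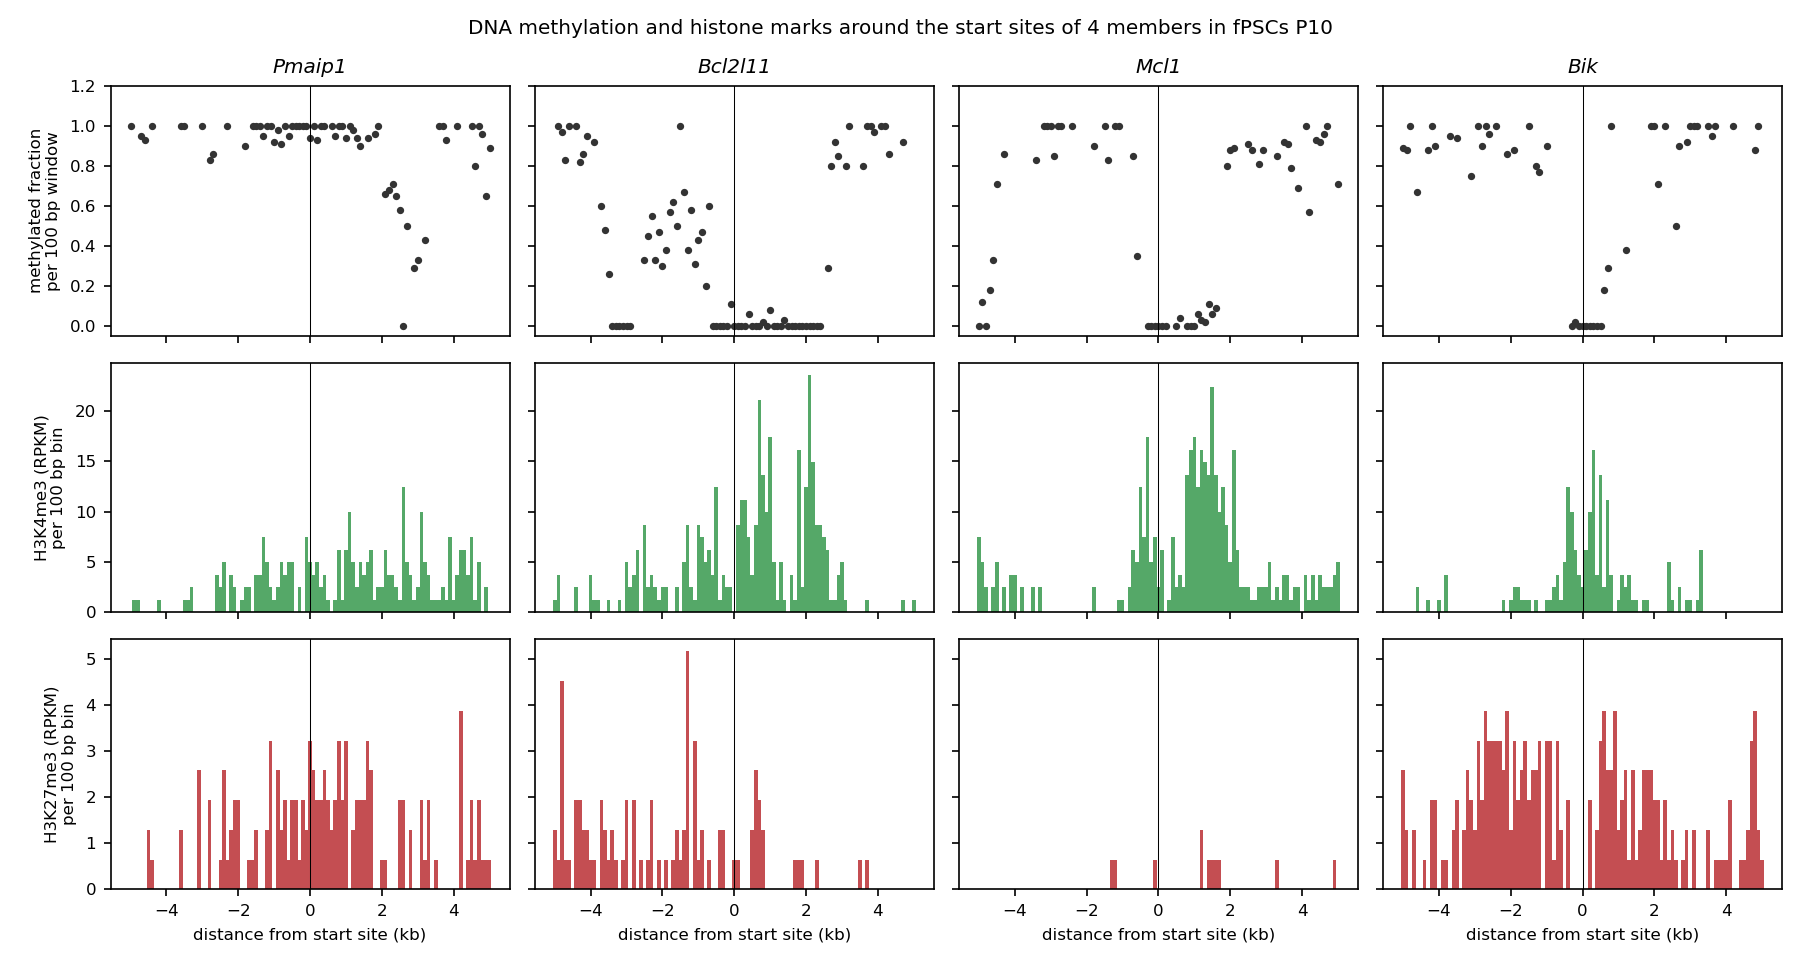
Methylated fraction per 100 bp window (top), H3K4me3 (middle) and H3K27me3 (bottom, both in RPKM per 100 bp bin) against the distance from the start site in kb, in the direction of the gene, for 4 members in fPSCs P10; each point or bar is 1 window or bin. *Bcl2l11*, *Mcl1* and *Bik* have a stretch near 0 around the start site, and *Pmaip1* stays at 0.9 or above through it.

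H3K4me3 within 2500 bp was above the median of all promoters (1.71 RPKM) at 9 of the 10 members. It was highest at *Bcl2l11* (6.32, percentile 97.3) and *Mcl1* (5.90, percentile 96.1), and *Bcl2* was the 1 below the median (1.49). *Pmaip1* was at 3.37 (percentile 76.8), in bins scattered over the whole window with a highest bin of 9.95, where the highest bins of the other members lay between 12.4 and 23.6. H3K27me3 was highest at *Bik* (1.93, percentile 91.2), *Bcl2* (1.72, percentile 89.5) and *Pmaip1* (1.41, percentile 86.5). The lowest values were at *Bax* (0.0125, percentile 0.945), *Mcl1* (0.113, percentile 16.6) and *Bcl2l1* (0.201, percentile 31.7). *Bak1* (0.492), *Bcl2l11* (0.631), *Bbc3* (0.378) and *Bmf* (0.656) lay between, all above the median of 0.353. A track of 1 sample allows no test of these differences.

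Single fPSCs of 4 clones were sequenced with Smart-seq2, and the deposited tables hold 182 cells where the labels speak of 192 sampled. One cell name stands over 2 different columns, which were kept as 2 cells. Total counts per cell ran from 307 to 722865, with medians per clone from 19078 to 33883. *Pmaip1* was not analysed here in single cells. *Mcl1* was counted in 116 of 182 cells (63.7%, exact 95% interval 56.3 to 70.7), *Bax* in 36.8% (29.8 to 44.3), *Bak1* in 31.3% (24.7 to 38.6), *Bcl2l11* in 27.5% (21.1 to 34.6) and *Bcl2l1* in 15.9% (10.9 to 22.1). The other 4 members measured were in under 10% of cells, *Bbc3* in 9.89% (5.97 to 15.2), *Bcl2* and *Bmf* in 4.4% each (1.92 to 8.48) and *Bik* in 1.65% (0.341 to 4.74). These intervals cover counting error only, and a cell without a count may still hold the RNA. Clones differed by more for some members than for others. *Mcl1* was in 60.9%, 71.7%, 65.2% and 56.8% of the cells of clones 1 to 4, and *Bax* in 19.6%, 63.0%, 26.1% and 38.6%. Clone 2 also had the most genes per cell, a median of 4198 beside 3425, 3440 and 3348 in clones 1, 3 and 4. The part of this detection in the shares was not tested. As CPM of the summed clone, *Bcl2l11* ran from 4.9 in clone 4 to 76.2 in clone 3 and *Bak1* from 13.1 in clone 4 to 64.6 in clone 1. There is 1 sum per clone, so these spreads are given without a test.

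The genes whose pattern over the 19 bulk libraries was most like that of the 3 widest-ranging members were found by Pearson's r of log2(FPKM + 1) among 9975 genes. For *Bcl2l11* these were *Setd7* (r = 0.96), *Ssbp3* (0.948) and *Zfp36l2* (0.947). For *Mcl1* they were *Meioc* (0.886), *Ubash3a* (0.885) and *Dmrt1* (0.878), and for *Pmaip1* *Kif5c* (0.799), *Syt11* (0.779) and *Crabp2* (0.761). The 19 points share groups, lines and library kits, so these values describe likeness only.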

How the data were processed

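Bulk RNA-seq of 19 libraries was deposited by the authors as FPKM (reads trimmed with cutadapt 1.11, aligned with TopHat2 2.1.1 to Ensembl mouse cDNA of mm9, estimated with Cufflinks 2.1.1). Of 23608 entries, 4 with a repeated name were left out. The study used DESeq2 on counts; since the table holds FPKM, log2(FPKM + 1) was compared with limma 3.58.1 in R 4.3.3 (trend on) in a joint fit of the 13 libraries of mESCs, EpiLCs, EpiSCs and long-term fPSCs. A gene was kept if 2 or more of these reached 1 FPKM. P-values were Benjamini-Hochberg adjusted over all 12513 genes. The step was tested on simulated data with independent noise in each library. Those data held no structure of kits or lines, so that test cannot vouch for the p-values here.

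ChIP-seq values are RPKM that the authors deposited for 100 bp bins (Trim Galore, Bowtie2 2.2.2), and bisulfite data as the methylated fraction per 100 bp window (BS-Seeker2). Bins not listed were taken as 0. Start sites came from the gencode vM1 annotation of NCBIM37, with 22072 protein-coding genes of a unique name. Of chromosome 19 windows with a value, 99.46% hold a CG, against 52.53% of windows at large. Single-cell counts were deposited by the authors per gene and cell and used as they are, summed per clone, with no filter on cells or doublets.

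The members and lists were chosen with earlier results of these data known. All 10 members are named; from other lists, at most the 3 called genes with the largest change and at least 5 FPKM in a group, of which some are not reported here. Alternatives were a pseudocount of 0.1, no filter, upper-quartile scaling, only the groups compared, the replicate number as a block, 1 deposit of fPSCs, each library left out, other weights of the balance, other windows, and cells with at least 500 genes.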

Additional observations from a re-analysis of the deposited data

Results flagged for a closer look

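*Mcl1* in CMT fPSCs at P10 (70.2 FPKM) stood apart from the other 6 long-term fPSC libraries, which ran from 44.5 to 55.2. Its gap to the nearest of them was 0.587 of the whole range of the group, above Dixon's 95% critical value of 0.568 for 7 samples. It was the only one of 11 values looked at in this group (10 members and the ratio of the classes) to do so, and chance alone would flag about 1 in 20. Without this library the differences of *Mcl1* against mESCs and EpiLCs kept their calls. It also gave CMT P10 the highest anti-apoptotic sum (96.9) and the lowest ratio (2.19) of the long-term fPSCs.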

How the results depend on the processing

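Over 54 comparisons of a member between groups, 663 values under alternatives were computed: 598 stayed on the same side of the threshold, 25 lost the call and 40 gained one. No called difference changed sign, and 32 of the 598 were differences without a call that did. Leaving out 1 library gave 2291 to 3019 genes called for EpiLCs against mESCs (3706 with all), 2425 to 3621 for EpiSCs against EpiLCs (4488), 865 to 1823 for fPSCs against EpiLCs (1728) and 1523 to 4463 for fPSCs against EpiSCs (4041). The counts moved by over 1.5 times without either mESC library, without EpiLCs replicate 2 or EpiSCs replicate 2, without either EpiLC library, and without either EpiSC library. The members called in these 4 comparisons were 1, 1 to 3, 1 to 2 and 0 to 4, and 2 to 4 for fPSCs against mESCs. For fPSCs against EpiSCs there were 0 without EpiSCs replicate 2 and 4 without ROSAmTmG. With only the groups compared, the members called were 2 for fPSCs against mESCs (4 in all groups) and 5 for EpiSCs against EpiLCs (2). With mESCs, EpiLCs and EpiSCs alone they were 5 for EpiLCs against mESCs (2) and 4 for EpiSCs against EpiLCs. With no filter on low values 2 were called for fPSCs against mESCs. With the first deposit of fPSCs, 3178 genes and 4 members were called against EpiLCs (1728 and 1 with all); with the second, 2648 genes against EpiLCs and 4 members against EpiSCs (2).

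With the replicate number as a block, 4 members were called for EpiLCs against mESCs (2 without it). Deviations of same-numbered libraries correlated over 12185 genes at 0.208 (mESCs and EpiLCs), -0.203 (mESCs and EpiSCs) and -0.138 (EpiLCs and EpiSCs). With 1 difference per group, these values cannot decide whether the numbers pair the samples. Upper-quartile scaling moved the median of all genes for EpiLCs against mESCs from -0.06 to 0.04.

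The log2 ratio of pro- to anti-apoptotic sums, as a difference from mESCs, was -0.45 in EpiLCs, 0.83 without *Bax*, -0.05 without *Mcl1* and 0.52 with mean logs. In EpiSCs it was 0.24, and 1.83, -1.18 and 0.45 under these settings. In fPSCs it was 0.63, 1.61 without *Bax* and -0.08 without *Mcl1*. With windows of 2500 bp to each side, 5 members were at a methylated fraction of 0.5 or more, against 1 at 1000 bp. The cause of these changes was not tested, and the depth of the FPKM table is unknown.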
